A study of Mus musculus with 14 samples.

Results

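The data compared here are 2 libraries of the aorta-gonad-mesonephros region (AGM) and 1 library of dorsal skin, all from mouse embryos at E10.5 and 3 of the 14 libraries of the series. They were chosen by their titles: both AGM libraries at this age, and the skin library of the first of 2 skin sequencing projects. All embryos were wild type and of the C57BL/6 strain, with no treatment, and polyA RNA of frozen tissue was sequenced. How many embryos went into a library, and whether the AGM libraries had different embryos, is not in the labels. Xist, an RNA of female cells, had 15 counts in the first AGM library and 26721 in the second. These 2 libraries therefore did not hold the same set of embryos. With the number of embryos unknown, the p-values reflect only how far these libraries lay apart, part of which may be technical. No sequencing project held both tissues, so a difference of tissue and one of project cannot be told apart within the libraries compared. Second-project skin, which was not tested, is set beside a few values below. The column of the second AGM library carries a sample number and no age, and was matched to E10.5 because the labels of the first round tie that number to this age.

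The AGM forms in the trunk of the midgestation embryo around the dorsal aorta, with the mesonephros, an embryonic kidney, and the coelomic epithelium from which the gonads arise on either side. Blood stem cells emerge there from hemogenic endothelium in the aortic floor, a step that requires the transcription factor Runx1, and signals from the surrounding mesenchyme act on them. Dorsal skin at this stage is a thin surface ectoderm over dermal mesenchyme, which lies close to the neural tube and the somites. Nearly all tissues of this stage also carry primitive red cells made in the yolk sac.

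The skin library held 22716613 counts, and the AGM libraries of the first and second rounds held 24513201 and 25818165. Between 25270 and 26342 of the 53465 genes in the table had a count in each. Over 15747 genes, themselves no replicates, the 2 AGM libraries correlated at r = 0.995 on a log2 scale, and the skin library correlated with them at 0.941 and 0.944. Values are counts per 1000000 counts of a library (CPM), not corrected for gene length. The AGM libraries of the other ages, which help set the spread, went against their age labels in some genes that fall with age in skin. Lin28a, an early developmental timing gene, was at 23 and 40.8 CPM in the AGM libraries labelled E9.5, at 121 and 129 at E10.5 and at 571 and 496 in those labelled E11.5, while first-project skin fell from 366 at E9.5 to 0.667 at E12.5. Sall4, a pluripotency factor, was likewise at 38.6 and 36.5 CPM in the AGM libraries labelled E9.5 and at 178 and 125 in those labelled E11.5. Hmga2, another timing gene, went with the labels. It fell from 1186 and 1406 CPM in AGM labelled E9.5 to 844 and 857 in AGM labelled E11.5, and in first-project skin from 683 at E9.5 to 71.6 at E14.5. The E10.5 AGM values of these genes lay between, and whether labels of the other ages were exchanged was not tested. In the order used throughout values are given for skin, then for AGM rounds 1 and 2. The ± after a log2 change is the standard error (SE) of edgeR's fit, in which AGM replicates set the spread and the single skin library was assumed to vary like them. A gene is said to have been higher or lower in AGM where edgeR's quasi-likelihood test gave a Benjamini-Hochberg adjusted p under 0.05.

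Of 19945 genes tested, edgeR called 4779, or 24%, between AGM and skin at E10.5. There were 2338 higher in AGM (11.7%) and 2441 lower (12.2%), and the median log2 change over all tested genes was 0.01. The counts of list members below are to be read beside these shares. Those of the pan-endothelial, venous and lymphatic, muscle, cell cycle and endoderm lists were near the 24% called. Entering the AGM round as a replicate block raised the calls to 8489, with 4004 higher and 4485 lower. The block takes the round difference out of the AGM spread. The single skin library is then assumed to vary by this smaller spread, though any such difference in skin was not measured. The p-values given below with the block may therefore be too small. With 1 AGM library left out, the calls fell to 3194 without the first-round library and 3244 without the second, and the genes called lower to 1608 and 1568. Higher genes had a median size of 1.32 on the log2 scale, with 684 over 2, and lower genes 1.14, with 724 over 2. Both AGM libraries lay above skin for 41.3% of tested genes and below it for 41.8%. The skin value rests on 1 library, and first-project skin at other ages gives a partial view of it. Of the genes called higher in AGM, 91.2% also had skin at E9.5 below both AGM libraries, and 61.2% skin at E12.5. Of those called lower, 81.8% and 78.9% had the skin of these ages above both. These shares reuse the AGM libraries that set the calls, and skin of the same project. They are therefore no independent check of the skin library.

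**Figure D1:**
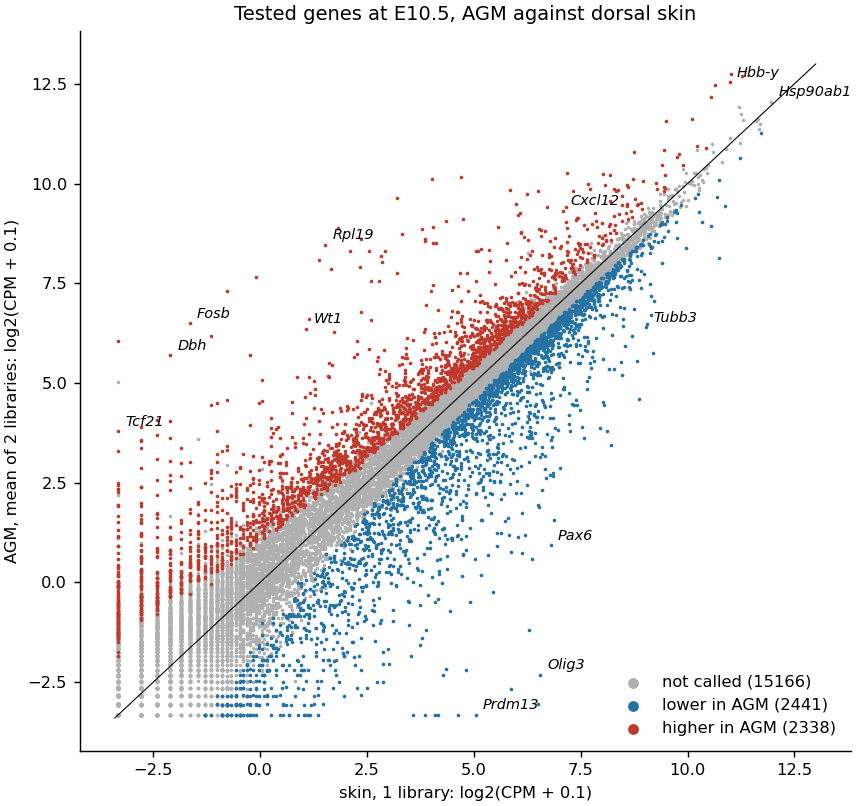
Expression of the 19945 tested genes in skin (1 library, horizontal axis) and AGM (mean of 2 libraries, vertical axis) as log2 of CPM plus 0.1, with the diagonal marking equal values. Genes higher in AGM (2338) lie above the diagonal and those lower (2441) below it, with Tcf21 at 0 in skin and Prdm13 at 0 in AGM.

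Tcf21, a transcription factor of the mesenchyme of kidney, gonad and other viscera, had 0 counts in skin and 14 and 13.5 CPM in AGM, at least 104-fold higher against a floor of 3 counts. Tcf21 lies at chr10:22817281-22820174 on the minus strand in GRCm38. Another 6 were posterior Hox genes, and Tbx5 and Fendrr, a long noncoding RNA beside Foxf1, were among the 15 largest increases as well. Dbh, the enzyme that turns dopamine into noradrenaline, was at 0.132 CPM in skin and at 61 and 42.2 CPM in AGM. That is a ratio of 389 (95% counting interval 133 to 1886). Fosb, an immediate early transcription factor at chr7:19302696-19310051, rose from 0.22 to 110 and 70.3 CPM. The last 4 were Ftl1, which encodes the ferritin light chain, and the ribosomal protein genes Rpl23a, Rps29 and Rpl19, which have many near-identical copies and are taken up at the end.

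Prdm13, which acts in dorsal spinal interneurons and lies at chr4:21677480-21685963, stood at 32.8 CPM in skin and at 0 in both AGM libraries, at least 551-fold lower. Wnt1 and Wnt3a, signals of the roof plate, were at 24.7 and 14.4 CPM in skin and 0 in AGM, at least 414-fold and 242-fold lower. Atoh1, Otp and Gsx1, regulators of neuronal identity, were likewise at 0 counts in AGM and at least 298-fold, 285-fold and 199-fold lower. Msx3 was at 90.2 CPM in skin, with 1 count in the first AGM library and 0 in the second. Olig3, at chr10:19356533-19358604, was at 93.6 CPM against 0.163 and 0.0387. The other 7 of the 15 largest decreases were Robo3, Lhx5, Barhl1, Ppp1r1c, Nppc, Sp9 and Pax5, with log2 changes from -7.83 to -5.94.

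**Figure D2:**
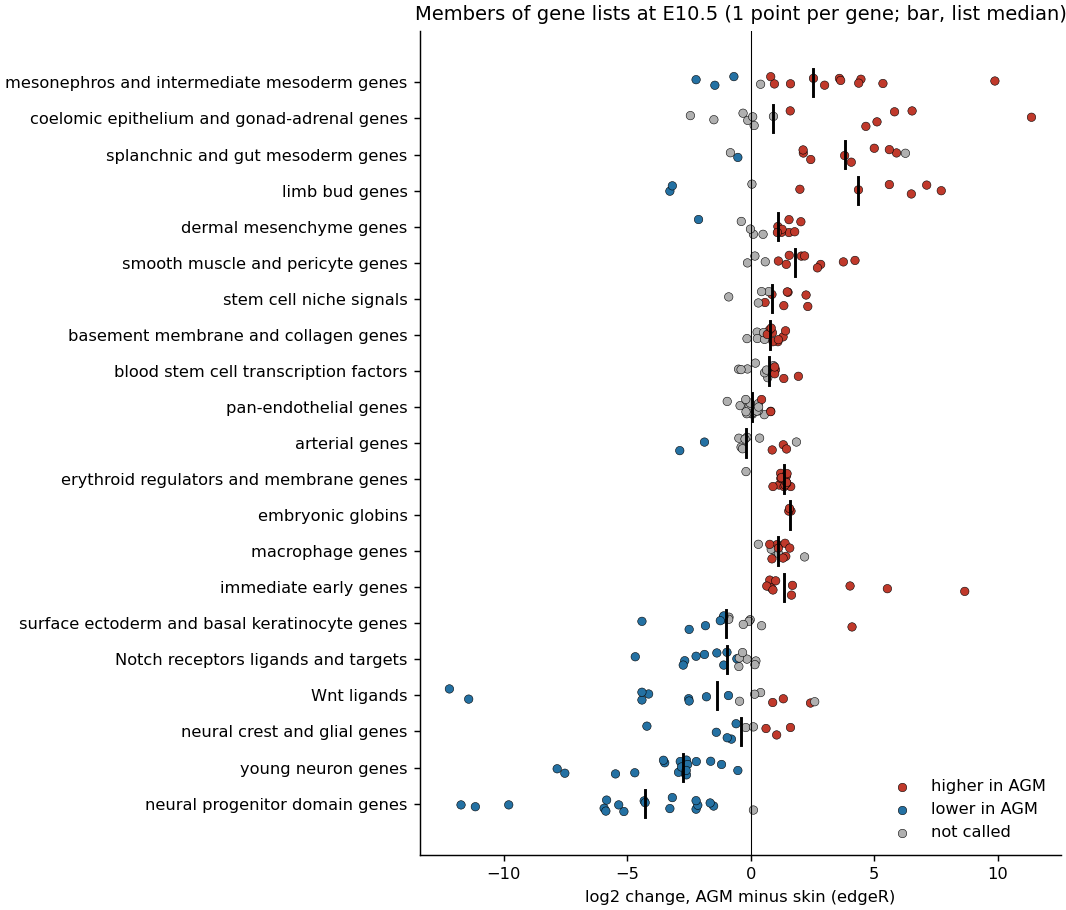
Log2 change of AGM minus skin (horizontal axis) for each tested member of 21 gene lists, with the list median as a bar and the colour giving the call. Limb, splanchnic and mesonephric genes have the highest medians, neural progenitor and neuron genes the lowest, and pan-endothelial genes sit around 0. Genes with 0 counts in a group are drawn at their fitted change, which depends on the prior count.

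Genes of the organs that give the AGM its name were among the clearest differences. Wt1, a zinc finger factor of coelomic epithelium and kidney mesenchyme, was at 2.02 CPM in skin and 86.4 and 78 CPM in AGM, a log2 change of 5.35 ± 0.20 (adjusted p = 2.1e-06). Wt1 lies at chr2:105126529-105173616. Of 15 mesonephros and intermediate mesoderm genes, 11 were higher, 3 lower and 1 not called, with a median of 2.54. Osr1, the earliest marker of intermediate mesoderm in the list, went from 1.72 to 41.7 and 29 CPM. Emx2, needed for the urogenital tract, went from 2.95 to 34.6 and 35.8 CPM. Gdnf, the ligand of the Ret receptor that drives outgrowth of the ureteric bud, was at 0.44 CPM in skin and 10.7 and 8.71 in AGM. Its receptor Ret rose from 23.2 to 51.2 and 38.5 CPM, while the co-receptor Gfra1 was lower in AGM, at 54.3 against 35.6 and 31.6 CPM. Cdh16, a cadherin of kidney tubules, had no count in skin and 5.79 and 4.07 CPM in AGM, at least 37.2-fold higher. First-project skin at E9.5 lay below both AGM libraries for all 11 higher genes, and skin at E12.5 for 8 (72.7%). Osr1 was at 107 and Emx2 at 47.8 CPM in skin at E12.5, above both AGM libraries.

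The members of that list that did not follow were Gfra1, Lhx1, Sall1 and Pax2. Pax2 lay at 19.7 CPM in skin and 28.8 and 22.8 in AGM (log2 change 0.40 ± 0.23, adjusted p = 0.247, and 0.021 with the replicate block). Its relative Pax8 was higher in AGM (1.61 ± 0.26). Lhx1 and Sall1 were lower, with changes of -2.21 ± 0.18 and -1.45 ± 0.15. First-project skin at E9.5 lay above both AGM libraries for 1 of the 3 lower genes, and skin at E12.5 for all 3.

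Gonad and adrenal regulators rose with them. Nr5a1, which specifies the adrenogonadal primordium, had 2 counts in skin and lay at 9.71 and 7.32 CPM in AGM, a ratio of 96.4 (95% counting interval 26.5 to 798). Gata4, which acts upstream of gonad formation, went from 0.396 to 29.2 and 15.6 CPM, and Gata6 from 0.924 to 25.5 and 21.1 CPM. In first-project skin at E9.5, however, Gata4 was at 32.7 CPM, and Gata6 too lay above both AGM libraries. Upk3b, a surface protein of mesothelium, went from 0.396 to 16.2 and 11.3 CPM. In all, 6 of 13 coelomic epithelium and gonad-adrenal genes were higher, 0 lower and 7 not called, with a median of 0.92. Skin at E9.5 lay below both AGM libraries for 2 of the 6 and skin at E12.5 for 5. The steroid enzyme genes Cyp11a1 and Cyp17a1 stayed at or under 0.572 CPM in every one of the 3 libraries. Primordial germ cells, which reach the genital ridge through the gut mesentery at about this stage, express a set of genes that stayed low in all 3 libraries. Pou5f1 had 0 counts in skin and 2.04 and 2.17 CPM in AGM, at least 15.9-fold higher, and Dppa3 was at 0 against 0.612 and 1.08 CPM. Together with Ifitm3 these were 3 of 12 germ cell genes called higher, with 9 not called. Dppa3 and Ifitm3 share 16.5% and 10% of their 50-base transcript windows with other genes, and with such genes left out Pou5f1 was the only one of the list still called. Dazl and Ddx4, which later germ cells express, did not pass, at 0.0816 to 1.02 CPM over the 3 libraries.

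Most genes listed for the mesoderm of the gut wall and of the limb were higher in AGM. Foxf1, a hedgehog target needed for splanchnic mesoderm, rose from 2.11 to 35.4 and 35 CPM (4.07 ± 0.31, adjusted p = 5.6e-05). Of 11 splanchnic and gut mesoderm genes 8 were higher, 1 lower and 2 not called. Their median was 3.80, or 2.43 with the member that had 0 counts in skin put at its bound. Hand2, shared by splanchnic, limb and sympathetic cells, went from 0.484 to 23.5 and 23.9 CPM. The lower gene was Isl1, which motor and sensory neurons also express, and its call was lost without either AGM library. Fendrr had 3 counts in skin and was at 14.8 and 17.9 CPM in AGM. Of 9 limb bud genes 6 were higher, 2 lower and 1 not called, with a median of 4.36. Tbx4, the hindlimb T-box factor, had 3 counts in skin and was higher in AGM by a ratio of 93.3 (95% counting interval 31.8 to 454), and the forelimb factor Tbx5 had 1 count and 13.7 and 6.78 CPM. Pitx1, the hindlimb determinant, rose from 0.748 to 17.7 and 13 CPM. Msx1 and Sall3 were the lower members, with changes of -3.27 and -3.17. Tbx5 was at 19.7 CPM in first-project skin at E9.5 and at 179 at E12.5, above both AGM libraries, and Hand2 at 75.5 at E12.5.

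Among transcription factors of the emerging blood stem cell several were higher in AGM, and Runx1 was not called. Runx1 lay at 3.87 CPM in skin and at 6.81 and 4.49 in AGM, a log2 change of 0.56 ± 0.33 (adjusted p = 0.259). Of 14 blood stem cell transcription factors 5 were higher, 0 lower and 9 not called, with a median of 0.75, and 11 had both AGM libraries above skin. With the replicate block 9 were higher and 1, Lmo2, lower. Without the first-round AGM library only 1 of them was called higher. The 5 were Gfi1, a repressor that switches off the endothelial program, Gfi1b, Lyl1, Tal1 and Mecom. Mecom, needed for stem cell self-renewal, went from 49.5 to 94.2 and 98.8 CPM (0.97 ± 0.13, adjusted p = 8.8e-04). Gfi1 was at 0.264 CPM in skin and 1.06 and 0.968 in AGM (adjusted p = 0.048), and Tal1 and Lyl1 passed with adjusted p of 0.0485 and 0.0489. These 3 and Gfi1b were lost under several other settings. Gata2 went from 7.44 to 17 and 10.8 CPM and did not pass (adjusted p = 0.106, and 0.000593 with the replicate block).

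Genes of surface proteins used to isolate these cells were mostly not called. Of 12, 2 were higher, 1 lower and 9 not called, with a median of 0.78. These counts are near the shares over all tested genes, 11.7% higher and 12.2% lower. With the replicate block 4 were higher. Itga2b, or CD41, an early marker of blood commitment that platelets also carry, rose from 6.65 to 25.1 and 16.1 CPM (adjusted p = 0.0248). Kit, the stem cell factor receptor, was at 30.6 CPM in skin and 40 and 37 in AGM (adjusted p = 0.179, and 0.021 with the block). Cd34 was lower in AGM, at 78 against 52 and 55 CPM, a call lost when either AGM library was left out. Ptprc, the pan-leukocyte marker CD45, was at 2.73 against 4.41 and 5.19 CPM and did not pass.

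Several signals made by the cells around the aorta were higher. Cxcl12, the chemokine that holds blood stem cells in their niche, was at 136 CPM in skin and 663 and 611 in AGM (2.24 ± 0.14, adjusted p = 1.8e-05). Of 11 tested niche signals 7 were higher, 0 lower and 4 not called, with a median of 0.86, and 4 were called higher without the second-round AGM library. The block gave 1 lower. Bmp4, which is made in the ventral aortic mesenchyme, rose from 15 to 37 and 38.4 CPM, and Dlk1 from 338 to 659 and 557. Kitl, the ligand of Kit, lay at 57.1 CPM against 68.9 and 71 (adjusted p = 0.093, and 0.00249 with the block). Igf2, another member, was at 109 against 377 and 229 CPM, but shares 61.2% of its windows with another gene. Cxcr4, the receptor of Cxcl12, was lower in AGM, at 60.8 CPM in skin and 7.75 and 8.71 in AGM. It is also expressed by migrating neurons and progenitors.

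**Figure D3:**
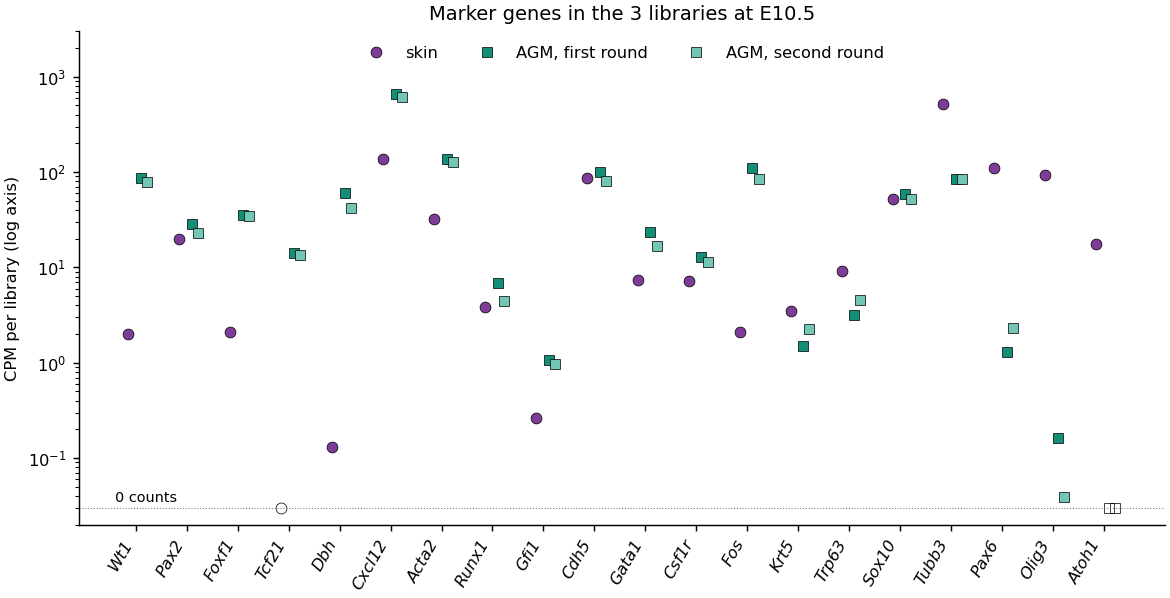
CPM of 20 marker genes in the skin library (circle) and the 2 AGM libraries (squares) on a log axis, with open symbols at the dotted line for 0 counts. Wt1, Foxf1 and Dbh lie higher in both AGM libraries, Cdh5 and Sox10 about level, and Tubb3, Pax6 and Olig3 higher in skin.

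Endothelial cells line the vessels of both tissues, and most of their genes, like most tested genes, were not called. Cdh5, the cadherin of endothelial junctions, was at 86.7 CPM in skin and at 99.9 and 80.6 in AGM (0.07 ± 0.22, adjusted p = 0.856). Pecam1 was at 43.1 against 43.2 and 41.1 CPM. Of 18 pan-endothelial genes 3 were higher, 0 lower and 15 not called, with a median of 0.06. With the replicate block 7 were higher and 1 lower, and without either AGM library 1 was higher. The 3 were Egfl7, Icam2 and Fli1. Among 12 arterial genes 3 were higher, 2 lower and 7 not called, with a median of -0.19. Gja5, the gap junction protein connexin 40 of arteries, rose from 9.51 to 25.5 and 21.4 CPM (1.32 ± 0.27, adjusted p = 0.00965), and shares 13.2% of its windows with other genes. Unc5b and Nrp1 were the other higher members. The lower ones were Cxcr4 and Notch1. Neural progenitors also express both, and whether this bears on their changes was not tested. Of 8 venous and lymphatic genes the receptor Ephb4 was higher, Prox1 lower and 6 not called, and the block gave 3 and 2. Prox1, the lymphatic switch, was at 49.6 CPM in skin and 19.3 and 18.4 in AGM, and also acts in young neurons.

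Red cell RNA was higher in AGM. The embryonic beta-like globin Hbb-y, at chr7:103851749-103853216, was at 2033 CPM in skin and at 6855 and 5073 in AGM (1.57 ± 0.37, adjusted p = 0.017). All 3 embryonic globins were higher, with log2 changes of 1.54 to 1.63. Haemoglobin genes together took 0.478% of the skin counts and 1.63% and 1.19% of the AGM counts. Of the 4 fetal and adult globins 1, Hba-a1, was higher and 3 did not pass, and all 4 share 10% or more of their windows with another gene. The block gave 2, and without the first-round AGM library 0 were called. Of 14 erythroid regulators and membrane genes 13 were higher, 0 lower and 1, the transferrin receptor gene Tfrc, not called, with a median of 1.33. The erythroid master regulator Gata1 rose from 7.44 to 23.7 and 16.7 CPM, and Slc4a1, the anion exchanger of the red cell membrane, from 144 to 462 and 285. The first-round AGM library was the higher of the 2 for all of these, and without it 5 of the 14 were called. In bulk tissue, more cells of a type and more RNA per cell cannot be told apart.

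The promoter of Hbb-y is shown because this globin gene had the highest CPM of the 7 in all 3 libraries. The run covers the bases upstream of the gene on the minus strand, at chr7:103853217-103853457 (RefSeq, GRCm38.p6), 5′ to 3′, with CACCC and CCAAT on either strand in capitals. CACCC is the core of the site bound by Klf1 and CCAAT a general promoter element.

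Hbb-y: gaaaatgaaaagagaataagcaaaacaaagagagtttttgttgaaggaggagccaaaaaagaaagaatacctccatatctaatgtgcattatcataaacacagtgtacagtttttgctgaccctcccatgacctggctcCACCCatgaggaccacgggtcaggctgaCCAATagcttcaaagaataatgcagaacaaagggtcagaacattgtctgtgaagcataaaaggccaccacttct

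Over the 250 bases upstream of the start, CACCC was found in 52% and CCAAT in 33.8% of 32851 mouse promoter windows on either strand, so both are common. Klf1, the erythroid factor that binds CACCC, was itself higher in AGM, at 10.3 against 29.9 and 21 CPM.

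Other blood lineages moved in the same direction. Of 14 macrophage genes 8 were higher, 0 lower and 6 not called, with a median of 1.12, and all 14 had both AGM libraries above skin. The count fell to 3 without the first-round and 5 without the second-round AGM library. Mrc1, the mannose receptor of tissue macrophages, went from 5.24 to 16.9 and 14.3 CPM, and Csf1r, their growth factor receptor, from 7.18 to 13 and 11.3. In skin at E12.5 none of the 8 genes lay below both E10.5 AGM libraries. Of 9 megakaryocyte and platelet genes the integrin Itgb3 and the chemokine Pf4 were higher and 7 did not pass, with a median of 1.2. With the block 4 were higher, and without the first-round library 0.

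Contractile and matrix genes of the vessel wall and mesenchyme were higher in AGM. Acta2, smooth muscle actin, was at 32.3 CPM in skin and 138 and 127 in AGM (2.05 ± 0.17, adjusted p = 7.4e-05). Of 12 smooth muscle and pericyte genes 9 were higher, 0 lower and 3 not called, with a median of 1.81. Cnn1 and Myh11, later contractile proteins, went from 0.352 CPM each to 7.3 and 5.93, and to 5.63 and 3.87. Pdgfrb, the receptor that recruits pericytes, rose from 66.8 to 194 and 165 CPM. Basement membrane and collagen genes were higher for 9 of 14, lower for 0, with a median of 0.80. First-project skin at E9.5 lay below both AGM libraries for all 9, and skin at E12.5 for 1. Fn1, or fibronectin, rose from 381 to 1044 and 957 CPM, while the vessel collagens Col4a1 and Col4a2 did not pass (adjusted p = 0.303 and 0.346, and 0.0259 and 0.0261 with the block).

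Genes written down as markers of dermal mesenchyme were higher in AGM rather than in skin. Of 13, 8 were higher, 1 lower and 4 not called, with a median of 1.10. Pdgfra, a receptor of fibroblast progenitors, was at 110 CPM in skin and 378 and 373 in AGM, and Prrx1 at 99.9 against 217 and 201. Twist2, a dermal transcription factor, rose from 5.28 to 15.9 and 14.9 CPM. The lower gene was En1, which marks the dorsal dermomyotome that gives rise to dermis and is also a neural gene, at 21.5 against 4.04 and 5.81 CPM. In skin at E12.5 none of the 8 higher genes lay below both AGM libraries. Of 15 somite genes 5 were higher, 0 lower and 10 not called, with a median of 0.58, and the block gave 8 and 2. Pax1 and Pax9, of the sclerotome that forms vertebrae, rose from 49.9 to 124 and 111 and from 15 to 37.7 and 33.7 CPM. Of 13 muscle genes Des and Myod1 were higher, Acta1 lower and 10 not called, and the block gave 4 and 2. Acta1 and 1 of the higher genes were not called without the second-round AGM library, nor Acta1 without the first. Of 7 tested heart genes Myl7 was higher, a call lost without either AGM library, and the block gave 2 higher and 1 lower.

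Epithelial genes split by kind. Of 8 simple epithelium genes 6 were higher, 1, Krt7, lower and 1 not called, with a median of 1.27. Without the first-round AGM library Krt7 was not called. Epcam, an adhesion protein of simple epithelia, rose from 7.13 to 17.5 and 22.5 CPM, and Krt18 from 9.02 to 26.7 and 32.9. Krt8, its partner keratin, rose from 5.15 to 24.4 and 28 CPM and shares 26.9% of its windows with other genes. In skin at E9.5 none of the 6 lay below both AGM libraries. Of 14 surface ectoderm and basal keratinocyte genes 7 were lower in AGM, 1 higher and 6 not called, with a median of -0.99, and 4 were called lower without the first-round AGM library. Changes in this list ran from -4.40 to 4.10. Skin at E9.5 and at E12.5 lay below both AGM libraries for the higher gene and above both for all 7 lower genes. Trp63, the master regulator of stratified epithelium, was at 9.11 CPM in skin and 3.14 and 4.53 in AGM (-1.23 ± 0.28, adjusted p = 0.0141). Wnt3 and Wnt6, ligands of the ectoderm, were at 15 and 16.5 CPM in skin and at 3.1 CPM or less in AGM. The keratins that define basal epidermis were low everywhere and not called. Krt5 was at 3.52 CPM against 1.51 and 2.25 (adjusted p = 0.171, and 0.003 with the block), Krt14 at 0.484 against 0.204 and 0.31, and Krt15 at 0.484 against 0.653 and 0.271. Of 7 melanoblast genes 1, Ednrb, was lower and 6 were not called, with Dct at 0.792 CPM in skin. Ednrb, at 200 CPM in skin and 28.3 and 28.9 in AGM, is also made by neural progenitors.

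The widest gap in the other direction was in the nervous system. Pax6, a patterning factor of neural progenitors, was at 111 CPM in skin and 1.31 and 2.29 in AGM, and Sox2, which keeps these cells undifferentiated, changed by -4.31 ± 0.13 (adjusted p = 1.1e-06). Of 18 neural progenitor domain genes 17 were lower in AGM and 1, Lmx1a, was not called, with a median of -4.29. Their values summed to 1721 CPM in skin and to 140 and 154 CPM in AGM. The list spans the dorsoventral axis of the neural tube, and its members fell by different amounts. Dorsal genes had changes of -9.79 ± 0.36 (Olig3), -3.17 ± 0.25 (Pax7) and -2.21 ± 0.42 (Pax3, which the somite also expresses). Intermediate genes fell by 5.83 (Dbx1) and 5.93 (Pax6) on the log2 scale. The ventral genes had the smallest changes of the 17, at -2.14 ± 0.23 (Nkx6-1), -1.64 ± 0.17 (Olig2) and -1.50 ± 0.26 (Nkx2-2).

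All 18 young neuron genes were lower in AGM, with a median of -2.72 and a summed level of 2742 CPM in skin against 498 and 529. Tubb3, the neuronal tubulin, was at 520 CPM in skin and 84 and 85.4 in AGM. Elavl3, a neuronal RNA-binding protein, was at 260 against 21.5 and 24.6 CPM. Neurog1 and Pou4f1, which specify sensory neurons and dorsal interneurons, changed by -4.69 ± 0.21 and -5.47 ± 0.23. The smallest change was that of Isl1, at -0.52 ± 0.13. In first-project skin at E9.5 all 17 of the progenitor genes called lower also lay above both E10.5 AGM libraries, and at E12.5 11 of 17. Of the 18 young neuron genes 11 (61.1%) did so at E9.5 and 15 (83.3%) at E12.5, against 81.8% and 78.9% of all genes called lower. The library labelled dorsal skin thus held RNA of neural tube and neuron genes, while the keratins of its own epidermis were low. Whether neural tissue was part of the dissected sample was not tested. Nor was its part in the lower values of genes, named in other lists, that neural cells also express. Of 11 tested hindbrain and midbrain genes 1 was higher, 4 were lower and 6 not called, and the block gave 2 higher. The 4 were En1, Gbx2, Pax5 and Otx2, of which Otx2 was at 1.76 CPM in skin and 0 in AGM.

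Genes of neural crest derivatives went both ways. Of 10 sympathoadrenal and autonomic genes 5 were higher, 3 lower and 2 not called, with a median of 0.94. Beside Dbh and Hand2, the autonomic determinant Phox2a rose from 4.09 to 13.4 and 11.4 CPM. Th, the enzyme that starts catecholamine synthesis, was at 10.7 CPM in skin and 14 and 10.7 in AGM (adjusted p = 0.544). Insm1 and Chrna3, which many young neurons express, were among the lower genes. Of 10 crest and glial genes 3 were higher, 5 lower and 2 not called, with a median of -0.39, and 3 were lower without the second-round AGM library. Sox10, the common crest and glia factor, was at 52.4 against 59.2 and 52.8 CPM (0.11 ± 0.14, adjusted p = 0.613). Fabp7, of radial glia and satellite cells, was lower in AGM, at 116 CPM against 5.1 and 7.44.

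Hox genes give cells their position along the body axis and are switched on from group 1 at the front to group 13 at the tail. Here the called genes of groups 1 to 5 and of groups 10 to 13 went opposite ways. All 15 genes of groups 1 to 5 were lower in AGM, with a median of -0.97 and changes between -1.61 (Hoxb4) and -0.57 (Hoxc5). Of 12 genes of groups 6 to 9, 5 were lower, 3 higher and 4 not called, with a median of -0.49. The largest decreases called among Hox genes were those of Hoxb8 and Hoxb9 (-2.25 and -2.05), so the changes did not rise steadily with paralogue number. Hoxb9 was at 361 CPM in skin and 85 and 88.2 in AGM, while its paralogue Hoxd9 was at 5.06 against 26.1 and 21.3. Of 10 tested genes of groups 10 to 13, 9 were higher and 1, Hoxc13, was not called, and 2 more, Hoxb13 and Hoxc12, were too low to test. Their median was 7.70, or 5.35 with the genes at 0 in a group put at their bound. Hoxa10 and Hoxc10 rose from 2.29 to 38.8 and 27.5 and from 2.95 to 49.3 and 40.5 CPM. Hoxd11, Hoxc11, Hoxd12 and Hoxa13 had 0 counts in skin and were at least 73.1-fold, 41.7-fold, 39.7-fold and 35.4-fold higher in AGM. Hoxd11 shares 10% of its windows with other genes. The first-round AGM library was the higher of the 2 for each of the 9 genes. In skin at E9.5 14 of the 15 lower genes of groups 1 to 5 lay above both AGM libraries, and all 9 higher genes of groups 10 to 13 below. In skin at E12.5 only 3 of the 15 (20%) and 2 of the 9 (22.2%) did so, with Hoxd13 at 300 CPM there. Genes of groups 10 to 13 are expressed in the tail end of the trunk and in limb buds, and limb genes rose beside them (above). How much of the body axis each dissection covered is not given in the labels, and its part in these differences was not tested.

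**Figure D4:**
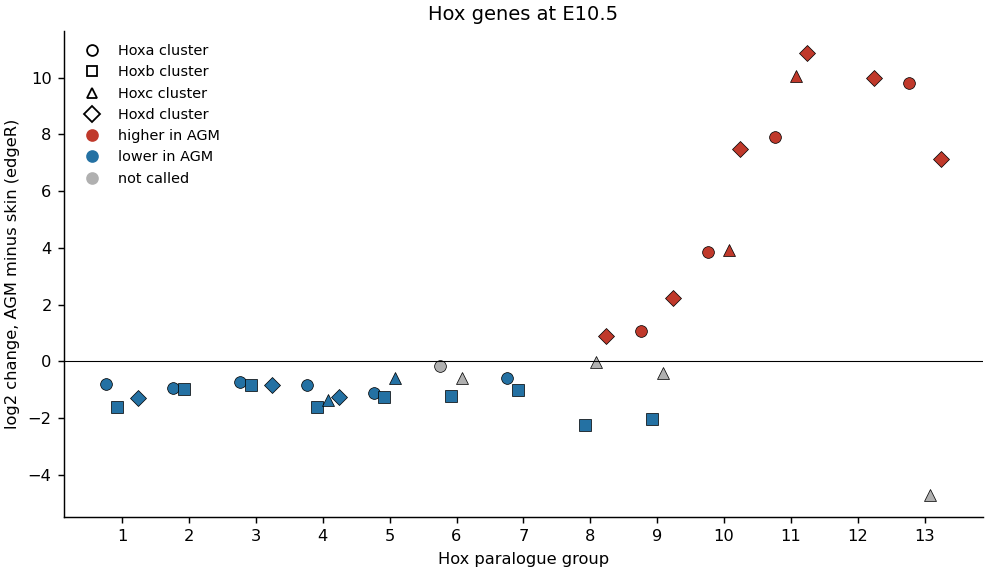
Log2 change of AGM minus skin (vertical axis) for each tested Hox gene by paralogue group (horizontal axis), with the cluster as the symbol and the call as the colour. Groups 1 to 5 lie below 0, groups 6 to 9 on both sides, and the 9 higher genes of groups 10 to 13 above 3, with the uncalled Hoxc13 below 0. Genes with 0 counts in a group are drawn at their fitted change.

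Signalling genes differed pathway by pathway. Notch signalling passes between touching cells and paces neurogenesis as well as arterial and blood fate. None of its 15 genes was higher, 9 were lower and 6 not called, with a median of -0.96, and the block gave 1 higher. The ligand Dll1 was at 90.9 CPM in skin and 16.5 and 22.6 in AGM, and Notch1 at 360 against 106 and 89.3. Hes5, a target best known from neural progenitors, was at 56.3 against 1.88 and 2.48 CPM. The endothelial ligand Dll4 did not pass, at 9.64 against 6.04 and 7.63 CPM, nor did Notch4. First-project skin at E9.5 lay above both AGM libraries for 8 of the 9 lower Notch genes, and skin at E12.5 for 3. Of 16 Wnt ligands 9 were lower, 3 higher and 4 not called, with a median of -1.34, and 1 was higher without the first-round AGM library. Beside Wnt1 and Wnt3a, Wnt7a and Wnt7b changed by -4.13 ± 0.26 and -4.40 ± 0.25. The higher 3 were Wnt2, Wnt5a and Wnt11. Wnt5a, which directs outgrowth without beta-catenin, rose from 52.7 to 99.8 and 94.3 CPM. Skin at E9.5 lay below both AGM libraries for 2 of the 3 higher Wnt genes, and skin at E12.5 for 0. For the 9 lower Wnt genes skin of these ages lay above both for 8 and 9.

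Bone morphogenetic protein (BMP) and growth differentiation factor genes included 6 higher, 4 lower and 5 not called of 15, with a median of 0.08. Bmp2, Bmp4, Bmp5 and the modulator Bmper were higher, Bmper rising from 5.46 to 26.5 and 23.9 CPM. First-project skin at E9.5 lay below both AGM libraries for 3 of the 6 higher genes, and skin at E12.5 for 0. For the 4 lower genes skin of these ages lay above both for 3 and 4. Gdf7, a roof plate ligand, had 107 counts in skin and 3 in AGM, a ratio of 79 (95% counting interval 26.3 to 389). Of 13 hedgehog genes 5 were higher, 4 lower and 4 not called, with a median of 0.39, and the block gave 8 higher. Without the second-round AGM library 3 were higher and 2 lower. Gli1, a direct target and readout of the pathway, rose from 32 to 101 and 90.9 CPM, and Shh from 16.9 to 25.9 and 31.5. The ligand-binding co-receptors Boc, Cdon and Gas1 were lower. Of 15 retinoic acid genes 3 were higher, 5 lower and 7 not called, with a median of -0.05, and 3 were lower without the second-round library. Aldh1a3, a synthesis enzyme, had 3 counts in skin and 8.24 and 4.61 CPM in AGM. The main embryonic enzyme Aldh1a2 was at 166 against 135 and 126 CPM (adjusted p = 0.0787, and 0.000477 with the block). Crabp1, a binding protein of the neural tube, was lower, at 431 against 111 and 120 CPM.

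Of 13 imprinted growth genes, which are expressed from 1 parental copy, 9 were higher, 1 lower and 3 not called, with a median of 0.86. The lower gene, Plagl1, was not called without either AGM library. The noncoding RNA H19 was at 1595 CPM in skin and 5188 and 6264 in AGM (1.86 ± 0.14, adjusted p = 4.3e-05). Peg3, a zinc finger gene, was at 719 against 3000 and 3111 CPM. Of 9 genes of the Lin28 and let-7 timing system Hmga2 was higher, Mycn and Igf2bp1 lower and 6 not called, and the block gave 3 higher. Hmga2, a chromatin protein silenced by let-7, went from 426 to 1119 and 1091 CPM, while Lin28a was at 84.6 against 121 and 129 (adjusted p = 0.167, and 0.0434 with the block). Of 20 cell cycle genes 3 were higher, 2 lower and 15 not called, with a median of -0.14, and the block gave 5 and 7. Without the second-round AGM library 1 was higher, and without either AGM library 0 were lower. Mki67, the common marker of dividing cells, was at 855 CPM in skin and 690 and 779 in AGM (adjusted p = 0.264).

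All 10 immediate early genes were higher in AGM. These genes are switched on within minutes by growth factors, stretch or stress, including tissue handling, and several encode the AP-1 transcription factors. Fos was at 2.11 CPM in skin and 110 and 83.8 in AGM (5.53 ± 0.28, adjusted p = 7.6e-06). Egr1, a zinc finger factor, was at 5.94 against 110 and 81.2 CPM. The list median was 1.33, and Fosb, Fos and Egr1 stood apart from the other 7, whose changes ran from 0.65 (Jun) to 1.69 (Klf4). Without the first-round AGM library 6 of the 10 were called. Levels also differed between ages within a tissue. Fos lay at 159 and 152 CPM in the AGM libraries labelled E9.5 and at 12.3 and 10.3 in those labelled E11.5, while the highest of the 4 first-project skin libraries, that of E14.5, was at 70.1 CPM and the lowest at 1.1. Second-project skin, which was not tested, ran from 11.6 to 202 CPM for Fos, from 2.71 to 258 for Fosb and from 72.9 to 496 for Egr1, and so overlapped the E10.5 AGM values. Fosb was at 111 CPM in both AGM libraries labelled E9.5 and at 15.6 and 11.1 CPM at E11.5. The time from dissection to freezing is not given in the labels, and its part in these values was not tested.

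The promoters of Fos and Fosb, the 2 members with the largest changes, are shown because all members of the list were higher. TGACG, the core of the cyclic AMP response element to which CREB and ATF factors bind, was chosen after the values were seen. TGACG was in 7 of the 8 immediate early promoters read and in 17.8% of 32851 windows of 250 bases, on either strand. The window of Atf3, 1 of the 7, lies wholly inside the span over which its reads were counted. Jun held none. Ier2 had no window, and Egr1 was not read. The runs are upstream of each gene, 5′ to 3′ on its own strand, with TGACG and its complement CGTCA in capitals (RefSeq, GRCm38.p6). They lie at chr12:85473640-85473889 on the plus strand for Fos and at chr7:19310052-19310295 on the minus strand for Fosb.

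Fos: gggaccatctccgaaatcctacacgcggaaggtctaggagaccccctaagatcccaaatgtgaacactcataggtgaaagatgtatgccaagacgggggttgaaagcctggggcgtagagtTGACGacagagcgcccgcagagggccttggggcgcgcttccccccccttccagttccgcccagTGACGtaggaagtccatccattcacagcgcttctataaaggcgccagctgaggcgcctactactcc
Fosb: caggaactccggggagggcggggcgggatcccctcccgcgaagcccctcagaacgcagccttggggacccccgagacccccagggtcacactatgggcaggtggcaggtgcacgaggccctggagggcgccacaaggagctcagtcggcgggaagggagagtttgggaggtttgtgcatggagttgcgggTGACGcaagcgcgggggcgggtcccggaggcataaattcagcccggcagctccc

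Fos holds 2 matches and Fosb 1. Nr4a1, a nuclear receptor gene whose window holds 4, was at 5.24 CPM in skin and 11.7 and 7.67 in AGM (0.90 ± 0.27, adjusted p = 0.0452). A match shows letters and no binding.

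Part of what was called higher in AGM followed gene copies and the sequencing project. For each gene the share of its 50-base transcript windows that also occurs in a transcript of another gene was counted in GENCODE M21. Among genes with no shared window 9.93% were higher and 13.8% lower in AGM (11066 genes). Among the 1598 genes with 10% to under 50% shared, 25.5% were higher and 4.88% lower, and among the 176 with 90% or more, 26.7% and 1.14%. The ribosomal protein genes, chosen after their values were seen, show this most plainly. Of 86 tested, 74 were higher in AGM, 0 lower and 12 not called, with a median of 2.39. The 70 with 10% or more shared windows had a median of 3.15, and the other 16 had 0.94. Rps3, with 3.21% shared, was at 857 CPM against 892 and 922. Rpl19, with 57.4% shared, was at 2.77 CPM in skin and 354 in both AGM libraries.

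Rpl19 lay between 1.21 and 4.87 CPM in the 4 first-project skin libraries, and between 279 and 505 in second-project skin and 301 and 442 in AGM. Thus it separated first-project skin from the other 10 libraries and not skin from AGM. For 65 of the 86 ribosomal protein genes (75.6%) all 4 first-project skin libraries lay below all 10 others, against 2.96% of all tested genes. The same held for 374 of the 2338 genes called higher in AGM (16%), a set picked for low first-project skin at E10.5. Of all tested genes with 10% or more shared windows 19.1% did so, and 0.709% of the rest. Ftl1 followed the same pattern, at 2.87 to 4.67 CPM in first-project skin, 365 to 491 in second-project skin and 369 to 536 in AGM. The sources used here do not say how each project's reads were aligned and counted at copies, and its part in these values was not tested. With genes of 10% or more shared windows left out before scaling, an alternative chosen after seeing the data, edgeR called 1907 genes higher and 2201 lower of 17509. Of the 4779 calls 81.9% were kept in the same direction.

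**Figure D5:**
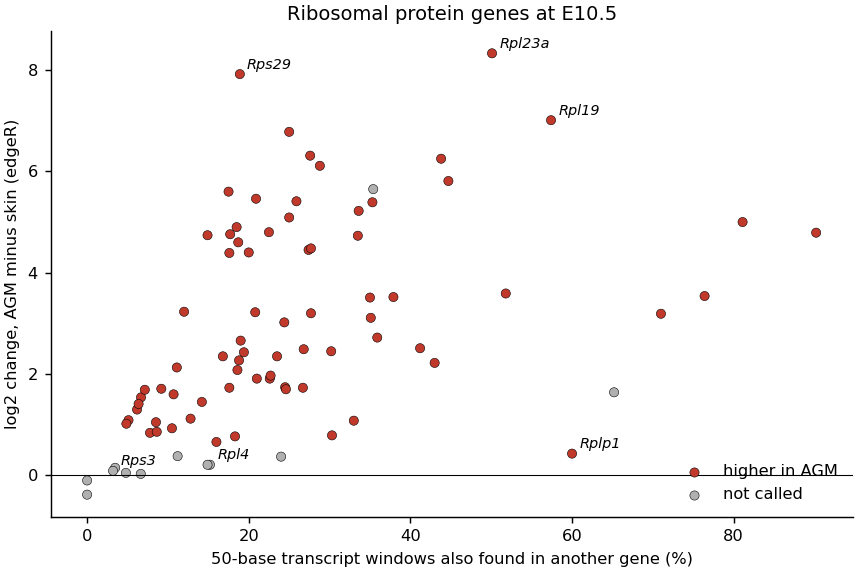
Log2 change of AGM minus skin (vertical axis) of the 86 tested ribosomal protein genes against the share of their 50-base transcript windows found in another gene (horizontal axis). The 16 genes under 10% have a median of 0.94 and Rps3 lies at 0.09, while Rpl19, Rpl23a and Rps29 lie above 7.

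The same windows bear on the most abundant transcripts and on several short lists. The 5 genes with the highest CPM in AGM were Eef1a1, mt-Co1, Hbb-y, H19 and Hba-x, all higher than in skin, and Eef1a1 and mt-Co1 share 39.4% and 51.1% of their windows. In skin they were Hsp90ab1, Eif4g2, Tubb5, Actb and Nedd4. Of these the translation factor gene Eif4g2 was lower in AGM, a call lost without either AGM library, and the other 4 were not called. Of 7 heat shock genes 3 were higher, 1 lower and 3 not called, and the 3, Hsp90aa1, Hspa8 and Hspb1, all share 10% or more. The lower gene, Hsph1, was not called without either AGM library. Of 13 mitochondrially encoded genes 3 were higher and 10 not called, with a median of 1.41, or 0.71 with bounds. The 3 were mt-Co1, mt-Atp8 and mt-Nd3. With the block 11 were higher, and without the first-round E10.5 AGM library 6. Both mt-Atp8 and mt-Nd3 had 0 counts in skin, and mt-Nd1 was at 2449 CPM against 2826 and 4036.

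Of 14 gut endoderm and liver genes 3 were higher, 1 lower and 10 not called, with a median of -0.18, and the block gave 4 lower. The liver genes Alb and Afp were at or under 2.33 CPM in all 3 libraries. The higher 3 were Foxa1, Shh and the lung and thyroid factor Nkx2-1, which had 0 counts in skin and 1.14 and 0.542 CPM in AGM. Without the second-round AGM library 1 of them was called. Of 8 complement and haemostasis inhibitors Cd55, Serpinf1 and Thbd were higher and 5 not called, with a median of 0.78, and the block gave 6. All 8 had both AGM libraries above skin. None of the 5 X inactivation and Y-linked genes was called. Xist, made from the inactive X of female cells, was at 256 CPM in skin, 0.612 in the first AGM library and 1035 in the second. Ddx3y of the Y chromosome was at 52.6 CPM in skin, highest in the first AGM library at 78 and lowest in the second. The 2 AGM libraries thus lay on opposite sides of skin for both genes, and without the first-round library 2 of these genes were called lower.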

How the data were processed

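The authors deposited 1 table of raw read counts per gene for the 14 libraries, with counts as whole numbers. The submitters' processing notes name the build GRCm38/mm10, the counter featureCounts 1.6.0, the aligner STAR 2.5.0a and Trimmomatic 0.36. Their settings, and whether counting used strand, are not given in the sources used here, so reads of overlapping antisense genes cannot be told apart.

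Counts of 10 libraries (6 AGM, 4 first-project skin) entered 1 edgeR fit (version 4.0.16, R 4.3.3): filterByExpr by group, TMM scaling, 7 group means, glmQLFit and glmQLFTest with 3 residual degrees of freedom, and Benjamini-Hochberg adjustment over 19945 genes. Second-project skin was left out. CPM is the count per 1000000 counts of a library. Replicate differences of AGM ages correlated at 0.36 to 0.565 over 14568 genes, so round numbers pair the AGM libraries, and the replicate block adds the round within AGM. On simulated counts of this comparison (18772 genes) 88% of the genes changed 2-fold and 100% of those changed 4-fold were called, and 6 of 194 calls were false. Apart from the changed genes, all at 5 CPM or more, every simulated library had the same mean per gene. Skin was made to vary like AGM, and no project difference was put in. The simulation therefore cannot show how many of the real calls are false.

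Genes named are the 15 largest changes each way (adjusted p under 0.05, mean of 5 CPM or more, both AGM libraries on 1 side of skin, predicted genes left out), members of 47 gene lists (539 of 540 genes in the table) and the 5 most abundant genes per tissue. The comparison, the members and the lists were chosen with earlier results of these data known. Where a group has 0 counts, the fold given is a lower bound that takes 3 counts for that group as a whole, and with 1 to 3 counts a ratio has a 95% counting interval, which covers counting error only. Promoters are RefSeq windows, and shared windows come from GENCODE M21 transcripts, matched for 99.8% of tested genes. Alternatives were DESeq2 1.42.0, limma 3.58.1 (voom), other scalings and filters, fewer libraries and glmTreat. Sequence reads were not analysed here, and a few list members are not reported here by name.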

Additional observations from a re-analysis of the deposited data

How the results depend on the processing

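The count of genes called between AGM and skin at E10.5 rose from 4779 to 8489 with the replicate block (4004 higher, 4485 lower), fell to 1293 when glmTreat tested against a log2 change of 1 (583 higher, 710 lower), and was 0 over all 14 libraries, where 847 genes had an unadjusted p under 0.05. Leaving out 1 AGM library at a time gave 3194 to 4675 calls, 1586 to 2321 higher and 1568 to 2354 lower. These fits have 1 residual degree of freedom less. In the 14-library fit second-project skin entered as replicates of first-project skin of the same age. The common dispersion, edgeR's measure of spread between replicates, was 0.664 there against 0.0147 in the reported fit. With the block it was 0.00396. Beyond these settings and the stricter null of glmTreat, the cause of the moves was not tested. Median-of-ratios scaling, no TMM, DESeq2, limma-voom, no filter, leaving out globin and mitochondrial genes, and fits of 3 or 7 libraries gave 3491 to 5909 calls, within 1.5 times the reported count. Of the 4779 calls DESeq2 kept 70.6% and limma-voom 90.2%.

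Among 552 named genes and list members 321 were called. All 321 kept their sign in every alternative of theirs but the 14-library fit, which was run for the total count alone, and 145 also kept their call. DESeq2 lost 24, limma-voom 35, glmTreat 172, and leaving out the first-round or second-round E10.5 AGM library lost 60 or 46. No fit without all second-round libraries was possible, because every AGM age would be down to 1 library. The single skin library sets the limit: its own spread was not measured, and genes near 3 counts there (0.132 CPM) have wide intervals.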
